A study of Mus musculus with 2 samples.

Results

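The Gad2 and Cdkn2a ectoderm is a set of 124 epithelial cells from the developing mouse face, out of 1255 ectoderm cells and 14860 cell barcodes in all. A cell belonged to it when at most 10% of its UMIs (unique molecular identifiers, each standing for 1 captured transcript) were mitochondrial, when it held 2 or more UMIs of Epcam and at most 2 of Prrx1, Prrx2 and Twist1 together, and when it held 2 or more UMIs of Gad2 and Cdkn2a together with at most 1 of Dkk4 and at most 1 of Gabrp. The comparison cells were the other 1131 cells that passed the Epcam and mesenchyme limits, called the other ectoderm here. The chosen cells are called members, and gated cells in the plots. The members were thus chosen by their own Gad2 and Cdkn2a counts, and the levels of those genes are given as a description only, as are those of Inhba, Fst and Wnt5a, with which the set was proposed.

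The cells came from the lambdoid junction of mouse embryos at E11.5, the region in which the facial processes that build the upper lip come together. One 10x Genomics 3' v2 library was made from wild-type C57BL/6J embryos and another from Crect; ROSA26-lacZ embryos, which carry a Cre and a lacZ transgene and are also labelled C57BL/6J. Each library pooled the tissue of 4 to 5 embryos, so the spread between embryos was not measured, and with 1 library for each genotype no test between genotypes was possible. The sources used here do not give the promoter that drives the Cre.

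Gad2 encodes a glutamate decarboxylase that makes the transmitter GABA and is best known from inhibitory neurons. Cdkn2a encodes, from overlapping reading frames, an inhibitor of the cyclin-dependent kinases that start the cell cycle and Arf, which stabilises p53. Inhba encodes a subunit of activin, Fst encodes follistatin, a secreted protein that binds and blocks activin, and Wnt5a encodes a Wnt ligand that mostly acts without beta-catenin. The nasal pit forms where the olfactory placode sinks into the head, and the ectoderm of its rim lines the surfaces that meet and fuse to make the upper lip and primary palate. In GENCODE vM21 (GRCm38, the assembly also called mm10), Gad2 lies on the forward strand of chromosome 2 at 22622205 to 22693874. Cdkn2a lies on the reverse strand of chromosome 4 at 89274471 to 89294653, and its relative Cdkn2b follows on the same strand at 89306299 to 89311039. Counts of 3' ends do not separate the different transcripts of Cdkn2a.

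The wild-type library gave 70 of these cells among 768 ectoderm cells, which is 9.12% (exact Clopper-Pearson 95% interval 7.17 to 11.4). The Crect; ROSA26-lacZ library gave 54 of 487, which is 11.1% (8.44 to 14.2). These intervals overlap, and they cover counting error only. The share followed depth and threshold: a limit of 3 UMIs gave 4.82% and 6.16%, a limit of 1 UMI gave 15.6% and 20.9%, and after every cell was thinned to 5000 UMIs before gating 4.37% and 3.18% passed. The median cell of the set held 14527 UMIs in the wild-type library, against 15259.5 in the other ectoderm, and 19958.5 against 16334 in the Crect; ROSA26-lacZ library. Summed, the members held 1162806 and 1203185 UMIs.

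Most members were chosen on Gad2 alone. Among the 124 cells, 89 held Gad2 and no Cdkn2a, 25 held both, and 10 held Cdkn2a and no Gad2. The split differed between the libraries, with 43, 17 and 10 such cells in the wild-type and 46, 8 and 0 in the Crect; ROSA26-lacZ library. Just inside the threshold, 33 and 24 members had a sum of exactly 2 UMIs. Just outside it, 57 and 50 ectoderm cells had a sum of 1. The Dkk4 and Gabrp limits kept out 8 and 3 cells with enough Gad2 or Cdkn2a. One of these, in the Crect; ROSA26-lacZ library, held 27 Cdkn2a UMIs, of the 33 found in the other ectoderm of that library.

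**Figure D1:**
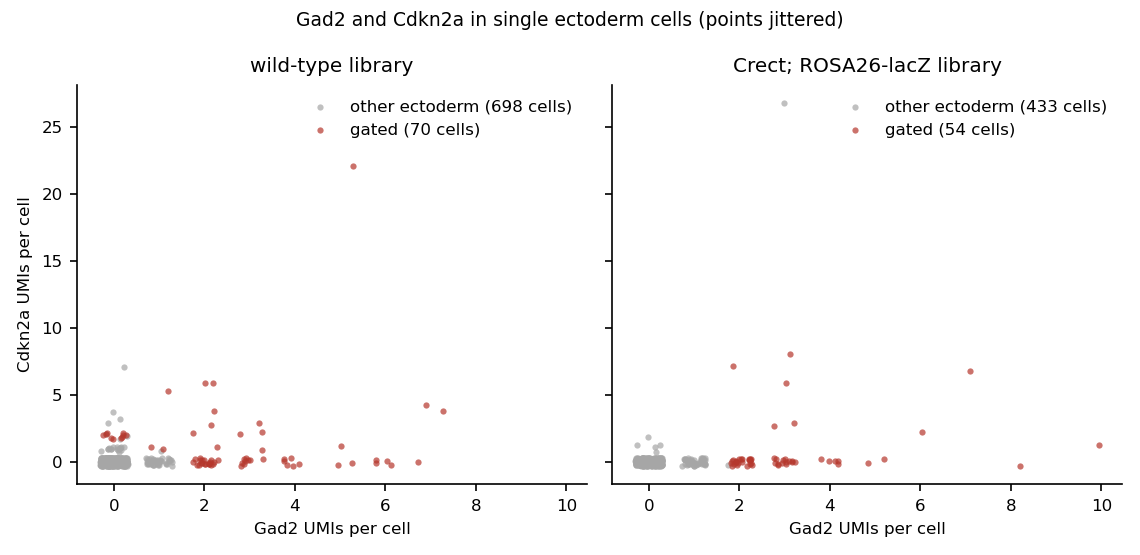
Gad2 UMIs (x axis) against Cdkn2a UMIs (y axis) in each ectoderm cell, jittered, for the wild-type (left) and the Crect; ROSA26-lacZ library (right), with members in red and the other ectoderm in grey. Most members lie along the Gad2 axis with no Cdkn2a UMI, 25 of the 124 hold both genes, and a single wild-type member holds 22 Cdkn2a UMIs.

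Gad2 and Cdkn2a were nonetheless found together when each was read in ectoderm cells chosen on the other, with no limit on Dkk4 or Gabrp. In the 29 wild-type cells with 2 or more Cdkn2a UMIs, Gad2 stood at 83.6 CPM (counts of UMIs per 1000000 UMIs summed), against 14.8 in the remaining ectoderm, a ratio of 5.64 (95% counting interval 3.89 to 8.002). In the 9 such cells of the Crect; ROSA26-lacZ library it stood at 139 against 21.8, a ratio of 6.36 (4.17 to 9.39). Read the other way, Cdkn2a stood at 63.3 against 5.49 CPM in 57 wild-type cells with 2 or more Gad2 UMIs, a ratio of 11.52 (8.01 to 16.6). In the 56 Crect; ROSA26-lacZ cells it stood at 50.6 against 0.802, a ratio of 63.1 (27.4 to 178), with 6 UMIs in the remaining ectoderm. The size of these ratios rested on single cells and on the limits. Without the cell of each library with most Cdkn2a the Cdkn2a ratios were 7.47 and 38.1, and the Gad2 ratios 5.05 and 7.604. With the Dkk4 and Gabrp limits applied to the chosen cells, which moved the Crect; ROSA26-lacZ cell with 27 Cdkn2a UMIs to the other side, the Cdkn2a ratios were 11.52 and 7.03 and the Gad2 ratios 8.45 and 8.26. All of these lay above 1. After thinning to 5000 UMIs the wild-type ratios were 2.75 (0.326 to 10.4) for Gad2 and 2.62 (0.301 to 10.5) for Cdkn2a, from 6 and 15 chosen cells with intervals that include 1, and the 2 and 10 chosen cells of the Crect; ROSA26-lacZ library held 0 UMIs of the other gene.

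Both genes were nearly absent from mesenchyme, the cell type that makes up most of each library and serves here as a gauge of free RNA. At full depth 0.485% and 0.731% of mesenchyme cells held a Gad2 UMI, against 13.3% and 20.9% of ectoderm cells. For Cdkn2a the shares were 0.224% and 0.266% against 6.64% and 2.88%. Median depths were 13806 and 17570 UMIs in mesenchyme and 15243 and 16662 in ectoderm. With every cell thinned to 5000 UMIs, Gad2 remained in 59.4% of the wild-type members (interval 46.9 to 71.1) and 53.7% of the Crect; ROSA26-lacZ members (39.6 to 67.4), and in 0.168% and 0.222% of mesenchyme cells. The members were chosen on these same counts, so their excess over mesenchyme was set by the choice and is a description only.

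The 3 further marker genes were all higher in the members of both libraries. Inhba stood at 46.4 and 28.3 CPM in the wild-type and Crect; ROSA26-lacZ members, against 9.75 and 10.7 in the other ectoderm. Fst stood at 31.0 and 58.2 in the members and at 17.9 in the Crect; ROSA26-lacZ other ectoderm, while the wild-type other ectoderm held 138 Fst UMIs among 698 cells. Wnt5a stood at 119.5 and 110.5, against 50.7 and 52.9. The members' sums lay above both sums of the other ectoderm for each of these genes, which is a description only, since the set was proposed with them. Inhba and Fst were held by few cells at a time, and the 3 highest cells of each library gave 46.3% and 47.1% of the members' Inhba UMIs and 50% and 48.6% of their Fst UMIs. All 3 genes were found in 4 wild-type and 3 Crect; ROSA26-lacZ members, and none of them in 12 and 8. In the wild-type library, Wnt5a stood at 76.3 CPM in the 50 cells with a Gad2 and Cdkn2a sum of 1 and at most 1 UMI each of Dkk4 and Gabrp, at 85.2 in members with a sum of 2, and at 152 in members above that. In the Crect; ROSA26-lacZ library these levels were 60.6, 73.8 and 136.

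Within the set, these markers were higher in members in which Cdkn2a was detected. Members with a Cdkn2a UMI, 27 in the wild-type and 8 in the Crect; ROSA26-lacZ library, had Inhba at 93.8 and 89.5 CPM, against 22.1 and 17.6 in the 43 and 46 members without one. The ratios were 4.24 (2.33 to 8.03) and 5.09 (2.43 to 10.6). Fst was 5.06 (2.36 to 11.8) and 3.82 (2.28 to 6.31) times as high, and Wnt5a 1.66 (1.17 to 2.35) and 2.21 (1.47 to 3.26) times. Cdkn2b, a cyclin-dependent kinase inhibitor encoded beside Cdkn2a, showed the same split, at 112 against 15.6 CPM in the wild-type and 190 against 2.93 in the Crect; ROSA26-lacZ members. Without a Cdkn2a UMI the members' Cdkn2b was thus near the 10.3 and 9.81 CPM of the other ectoderm in the wild-type library and below it in the other.

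Other genes that were higher in the members with a Cdkn2a UMI, in both libraries, were Cdkn1a, the kinase inhibitor best known as a p53 target, with ratios of 2.33 (1.70 to 3.20) and 5.25 (3.41 to 8.07), and Tgfb2, a Tgf-beta ligand, with 3.63 (2.62 to 5.07) and 1.87 (1.41 to 2.44). Runx1, a transcription factor, was 2.14 (1.64 to 2.79) and 4.26 (2.98 to 6.06) times as high, and Ripply3, a co-repressor, 2.02 (1.35 to 3.03) and 6.68 (3.39 to 13.3) times. Aldh1a3, which makes retinoic acid in the nasal pit, went opposite ways, with ratios of 0.868 (0.757 to 0.993) and 1.29 (1.094 to 1.508). Summed nasal pit markers did so too, at 0.888 and 1.196. Summed surface ectoderm markers were higher in both libraries, at 1.384 (1.279 to 1.498) and 1.714 (1.557 to 1.884). The ligand gene Wnt6 was also higher, at 1.616 and 4.774, whereas the chemokine gene Cxcl14 was lower, at 0.430 and 0.212. The intervals cover counting error only, and these genes were chosen for this comparison after values had been seen. A few cells carried much of it: among members with a Cdkn2a UMI the 3 highest cells held 64.9% and 81.2% of the Inhba UMIs, 69.2% and 89.3% of the Fst UMIs, and 47.7% and 70.6% of the Cdkn2b UMIs.

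**Figure D2:**
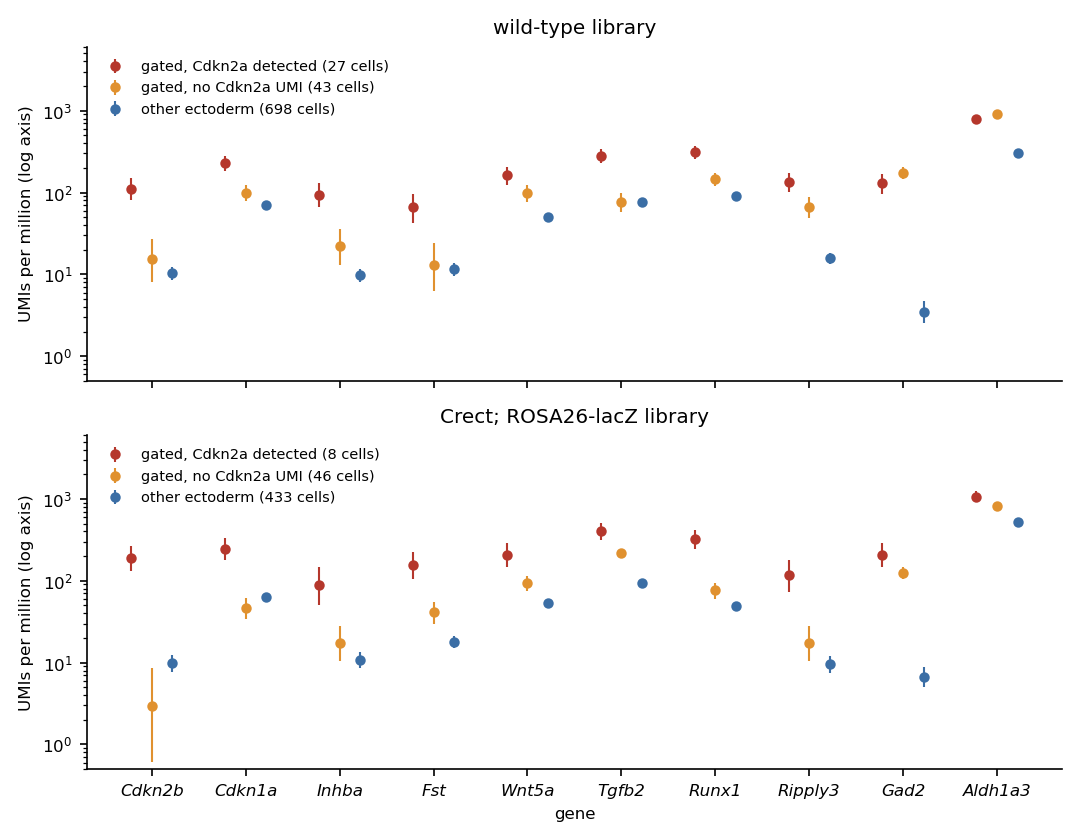
Summed CPM (y axis, log) of 10 genes (x axis) in members with a Cdkn2a UMI (red), members without one (orange) and the other ectoderm (blue), for the wild-type (top) and the Crect; ROSA26-lacZ library (bottom), with 95% Poisson intervals. Cdkn2b, Inhba, Fst, Tgfb2, Runx1 and Ripply3 lie highest in the members with a Cdkn2a UMI in both libraries, whereas Aldh1a3 lies close together in both kinds of member.

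The cells kept out for their Dkk4 shared part of this pattern. In the 44 wild-type and 28 Crect; ROSA26-lacZ ectoderm cells with 2 or more UMIs of Dkk4, a secreted Wnt inhibitor, Cdkn2b stood at 52.6 and 59.9 CPM, against 48.2 and 30.8 in the members. Inhba stood at 44.0 and 56.1 there, and Tgfb2 at 330 and 268. Gad2, in contrast, stood at 3.22 and 5.61 CPM in the Dkk4 cells, near the 3.50 and 6.76 of the other ectoderm as a whole. Cdkn2a stood at 24.7 and 52.4 in the Dkk4 cells, and 27 of the 28 Cdkn2a UMIs of the Crect; ROSA26-lacZ Dkk4 cells came from the cell named above. That cell, which held enough Gad2 and Cdkn2a for the set and was kept out by the limits, also held 24 Cdkn2b and 15 Inhba UMIs. Much of the Cdkn2b and Inhba of the Crect; ROSA26-lacZ Dkk4 cells thus came from it. High Cdkn2b, Inhba and Tgfb2 were also found in the wild-type Dkk4 cells, outside the set.

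Across all genes, the sums of the members were compared with the sums of the other ectoderm, with library as a block (the quasi-likelihood test of edgeR, with p adjusted after Benjamini and Hochberg). A gene was called when its adjusted p was under 0.05, its fold was 2 or more and its direction was the same in both libraries. Among 11539 genes tested, leaving out the 11 gate and marker genes, 84 were called higher (0.728%) and 80 lower (0.693%). The fit had 1 residual degree of freedom and the set was proposed from these libraries, so the p-values cannot be read as those of a replicated design. DESeq2 called 43 higher and 24 lower, and over the alternatives that kept the block the count called lower ran from 24 to 143. Without the library block edgeR called 0 genes, with 363 higher and 314 lower at an unadjusted p under 0.05. The 34 genes named by a rule of size, 20 higher and 14 lower, were taken from those called.

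**Figure D3:**
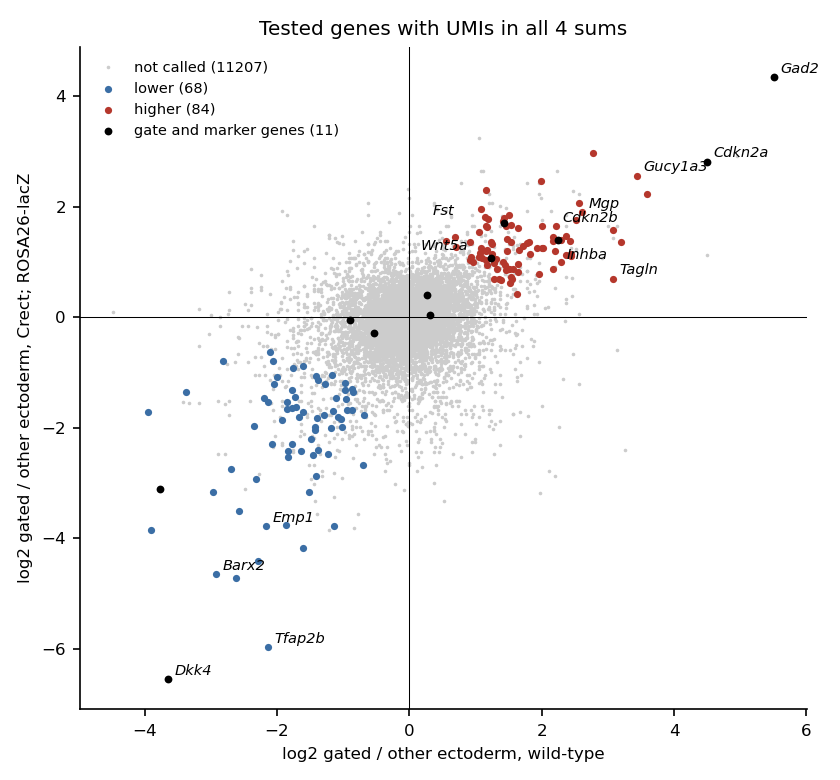
Log2 ratio of members to other ectoderm in the wild-type (x axis) and in the Crect; ROSA26-lacZ library (y axis) for each tested gene with UMIs in all 4 sums. The 84 genes called higher (red) and 68 of those called lower (blue) are shown. The call rule itself places them on the same side of 0 in both libraries. The gate and marker genes (black) are shown as a description.

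Among the cyclin-dependent kinase inhibitors and senescence-linked genes, 3 of 16 tested were called higher and 0 lower, with a median log2 fold change of 0.21 against 0.01 over all genes tested. Cdkn2b stood at 48.2 and 30.8 CPM in the members of the wild-type and Crect; ROSA26-lacZ libraries and at 10.3 and 9.81 in the other ectoderm. It was higher by 2.02 ± 0.22 (SE) on the log2 scale (edgeR adjusted p = 0.000195). Igfbp3, which binds insulin-like growth factors, stood at 93.7 and 111 against 24.6 and 46.7, higher by 1.61 ± 0.16 (edgeR adjusted p = 9.38e-05). Rb1, the retinoblastoma protein through which these inhibitors hold back the cycle, stood at 38.7 and 29.9 against 17.2 and 15.5 (log2 1.11, edgeR adjusted p = 0.00803). Cdkn1a was not called, at 144 and 76.5 against 71.3 and 63.9, nor was Cdkn1c, at 699 and 285 against 821 and 520. Lmnb1, a nuclear lamin known to be lost in senescent cells, differed little, at 255 and 209 against 243 and 205 CPM. Il6, a cytokine of the senescent secretome, had 0 UMIs in all 4 sums.

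Of 23 p53 targets tested, 0 were called higher and 1 lower, with a median log2 fold change of 0.16. The summed list went the other way, with ratios of 0.908 (0.863 to 0.956) and 0.878 (0.829 to 0.930). The gene called lower was Plk2, a polo-like kinase, at 24.1 and 20.8 against 82.2 and 64.8 CPM (log2 -1.67 ± 0.17, edgeR adjusted p = 9.38e-05). Mdm2, which degrades p53, was not called and stood at 50.7 and 58.2 against 40.2 and 40.3.

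The members held transcripts of all cycle phases. Of 42 S phase genes and 52 G2 and M phase genes tested, 0 were called in either direction, with median log2 fold changes of -0.13 and 0.16. Summed S phase UMIs were 3261 and 2574 CPM in the members against 3574 and 2949, ratios of 0.912 (0.883 to 0.943) and 0.873 (0.840 to 0.906). Summed G2 and M phase UMIs were 8201 and 6771 against 7837 and 6128, ratios of 1.05 (1.02 to 1.07) and 1.11 (1.08 to 1.13). Within the set, members with a Cdkn2a UMI had fewer S phase UMIs than members without, at 2851 against 3472 and 1561 against 2751 CPM. Their G2 and M phase sums went opposite ways in the 2 libraries, at 5903 against 9381 in the wild-type and 7831 against 6586 in the Crect; ROSA26-lacZ library. The median cell, less open to a few cells of high counts, had 32.1 against 55.7 G2 and M phase UMIs per 10000 in the wild-type and 17.8 against 53.2 in the Crect; ROSA26-lacZ library. Over the whole set the median member had 41.6 and 46.3, against 53.3 and 42.0 in the other ectoderm, so that the wild-type median lay on the other side from the wild-type sum.

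Few genes of GABA synthesis, transport and signalling could be measured beside Gad2. Of 25 such genes, 8 could be tested, 0 were called, and 13 had 0 UMIs in the members of both libraries. The latter included Slc32a1, which loads GABA into vesicles. Gad1, the other glutamate decarboxylase gene, had 4 and 6 UMIs in the members (3.44 and 4.99 CPM). The much larger sums of the other ectoderm held 12 and 21 UMIs (1 and 2.78 CPM), and Gad1 was not called. Of 5 neuron markers tested 0 were called higher and 1 lower, the tubulin gene Tubb3, and Neurod1, Neurod4, Nhlh1 and Nhlh2 had 0 UMIs in the members. The summed level of the 12 neuron markers was 49.0 and 44.9 CPM, against 68.4 and 179.5 in the other ectoderm.

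Of the 24 tested genes of the activin, follistatin and Tgf-beta group, 1 was called, Tgfb2, with a median log2 fold change of 0.31. It stood at 145 and 243.5 CPM against 77.1 and 94.7, higher by 1.20 ± 0.12 (SE, edgeR adjusted p = 9.34e-05). The activin receptor genes Acvr2b, at 74.0 and 106 against 64.6 and 82.9, and Acvr2a, at 12.9 and 26.6 against 31.3 and 30.5, were not called. Nor was Smad7, an inhibitor that Tgf-beta signals induce, at 91.2 and 97.2 against 69.6 and 66.2. Among 18 Bmp pathway genes, Id4, an inhibitor of basic helix-loop-helix factors, was the 1 called, at 80.0 and 79.0 against 28.9 and 43.9 (log2 1.19). Against nasal cells alone, a comparison described below, 0 of 16 Bmp pathway genes were called.

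Of 13 retinoic acid genes tested, 3 were called higher and 0 lower, with a median log2 fold change of 0.46. Aldh1a3 stood at 873 and 865 CPM in the members against 302 and 521 (log2 1.18 ± 0.15, edgeR adjusted p = 0.000606, a call that DESeq2 did not make). Stra6, the receptor that takes up retinol, stood at 64.5 and 86.4 against 16.7 and 50.7 (log2 1.30). Cyp26b1, which breaks retinoic acid down, stood at 21.5 and 16.6 against 5.33 and 7.03 (log2 1.68). Against nasal cells alone, a comparison described below, 0 of 12 were called, with a median of 0.09.

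Of 54 Wnt pathway genes tested, 1 was called higher and 7 lower, with a median log2 fold change of -0.17. The ligand genes Wnt3, Wnt6, Wnt7b and Wnt9b were all called lower. Wnt3, a ligand gene linked to cleft lip, had 16 UMIs (13.8 CPM) in the wild-type members against 68.9 CPM, and 0 UMIs in the Crect; ROSA26-lacZ members against 42.3. In the latter it was at least 17.0-fold lower, with a floor of 3 UMIs in that library. Kremen2, a co-receptor for Wnt inhibitors of the Dkk family, stood at 24.1 and 9.14 against 86.0 and 52.6 (log2 -2.03 ± 0.20, edgeR adjusted p = 9.06e-05). The gene called higher was Lgr5, an R-spondin receptor and Wnt target, at 61.9 and 72.3 against 26.3 and 28.2 (log2 1.34), a call lost after thinning to 5000 UMIs. Against nasal cells alone 0 of 42 Wnt pathway genes were called, and Wnt6 stood at 104 and 58.6 CPM in the nasal members against 100.2 and 49.4.

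Among 22 Fgf genes 2 were called higher and 1 lower, and among 16 Notch genes 1 higher and 2 lower. Fgf17 stood at 31.0 and 73.1 against 15.0 and 25.2 CPM (log2 1.39) and the decoy receptor gene Fgfrl1 at 24.1 and 18.3 against 5.25 and 7.96 (log2 1.75), both called higher. Against nasal cells alone 1 of 17 Fgf genes tested was called, Fgfrl1, which was higher. At full depth, Fgf17 was found in 17.4% of 69 wild-type and 40.7% of 54 Crect; ROSA26-lacZ members, nasal or not. In the nasal comparison cells the shares were 20.8% and 33.5%. Fgf8, the Fgf ligand of the nasal pit rim and oral ectoderm, was called lower, at 13.8 and 16.6 against 47.3 and 41.2 (log2 -1.50 ± 0.21). Shh, the hedgehog ligand, had 0 UMIs in the members of both libraries against 17.4 and 21.1 CPM in the other ectoderm, and was at least 14.8-fold lower with a floor of 3 UMIs over both members' sums. Like Dkk4, Shh is on the list of placode-like ectoderm markers. The gate limited Dkk4 in the members but not in the other ectoderm, so the fall of Shh cannot be told apart from that choice. In the Notch group, the target Hey1 was called higher, at 101 and 158 against 42.3 and 62.9 (log2 1.34). Notch1 was called lower, at 18.1 and 21.6 against 35.3 and 54.1 (log2 -1.12), as was Lfng, which modifies Notch receptors. Several of these calls were lost under an alternative. Fgf17 was lost with 3 or more UMIs of the gate pair and with depth-matched comparison cells, and Fgf8 after thinning. Notch1 was lost with DESeq2 and against cells with no Gad2 or Cdkn2a UMI, with the Dkk4 and Gabrp cells also left out.

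Nasal pit markers were higher in the set. Of 10 nasal pit and olfactory markers tested, 6 were called higher, among them Eya2, Sp8, Six3 and Aldh1a3, and 1 lower (Lhx2), with a median log2 fold change of 1.22. Eya2, a transcriptional co-activator, stood at 96.3 and 120.5 CPM against 33.2 and 46.8 (log2 1.49 ± 0.13, edgeR adjusted p = 3.39e-05). Sp8, a zinc finger factor of the nasal and limb ectoderm, stood at 52.5 and 109 against 14.8 and 49.1 (log2 1.45). Summed, the 16 markers of this list were 2.60 (2.47 to 2.73) and 1.81 (1.73 to 1.89) times as high. A cell with 10 or more UMIs of Aldh1a3 and Six3 together, called nasal here, was found among 49 of 70 wild-type members (70.0%, 57.9 to 80.4) and 42 of 54 Crect; ROSA26-lacZ members (77.8%, 64.4 to 88.0). In the other ectoderm the shares were 24.5% and 39.7%. At a common depth of 5000 UMIs a cell, 84.1% and 81.5% of members held a UMI of Aldh1a3, against 43.4% and 52.6% of the other ectoderm and 3.01% and 5.97% of mesenchyme cells.

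Of 10 surface ectoderm markers tested, 4 were called lower (Wnt3, Wnt6, Tfap2b and Krt15) and 0 higher, with a median log2 fold change of -0.75. In the list of 58 patterning factors 8 were called in each direction, with a median log2 fold change of -0.04, while the summed list was 1.14 and 1.22 times as high in the members. Those called lower included Barx2, Irx3, Irx4, Irx5, Tfap2a, Tfap2b and Lhx2. Tfap2b, mutated in a syndrome with facial malformation, stood at 71.4 and 2.49 CPM against 315 and 156 (log2 -2.78 ± 0.34, edgeR adjusted p = 0.000445, a call that DESeq2 did not make). In the wild-type members 3 cells gave 67.5% of it, and 7 of 70 wild-type and 1 of 54 Crect; ROSA26-lacZ members held 2 or more UMIs. Tfap2a, its paralogue, stood at 19.8 and 13.3 against 83.8 and 65.1 (log2 -2.13 ± 0.18). Barx2, a homeobox factor, stood at 5.16 and 1.66 against 39.0 and 41.6 (log2 -3.52), and Irx5 at 12.9 and 1.66 against 79.7 and 44.0 (log2 -3.06). Of 33 tested genes of the orofacial clefting list, 4 were called lower (Wnt3, Wnt9b, Tfap2a and Tfap2b) and 0 higher. The median log2 fold change of the list was -0.09, against 0.01 over all genes tested, of which 0.693% were called lower. Against nasal cells alone 1 of 28 was called, Tfap2b, which was lower, with a median of 0.002.

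**Figure D4:**
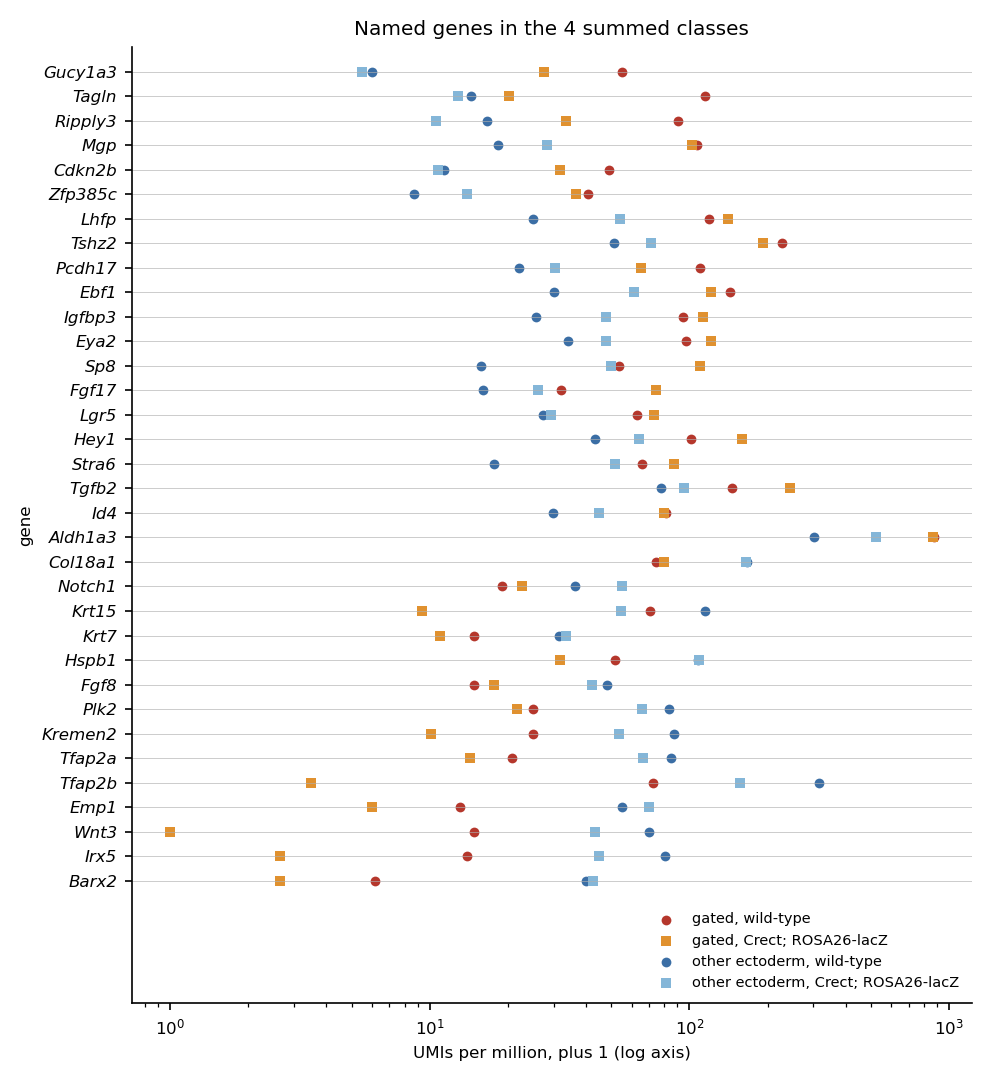
Summed CPM plus 1 (x axis, log) of the 34 named genes (y axis, ordered by fold change) in the members (red circles, wild-type; orange squares, Crect; ROSA26-lacZ) and in the other ectoderm (dark and light blue). The members' points lie to one side of both blue points except for Krt15, whose wild-type members, at 69.7 CPM, lay above the 53.4 of the Crect; ROSA26-lacZ other ectoderm. The genes were chosen for the size and shared direction of their change, so this separation largely follows from the choice.

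Keratin and periderm genes had median log2 fold changes of -0.65 and -0.42. Among 8 keratin genes 2 were called lower, Krt7, at 13.8 and 9.97 CPM against 30.5 and 32.4, and Krt15, at 69.7 and 8.31 against 113 and 53.4. The Krt7 call was lost with DESeq2 and against cells with no Gad2 or Cdkn2a UMI, with the Dkk4 and Gabrp cells also left out. The Krt15 call was lost after thinning and after depth matching. Of 14 periderm markers, genes of the flat outer cell layer, 3 were called lower, among them Emp1, a membrane protein, at 12.04 and 4.99 against 53.9 and 68.8 (log2 -2.81 ± 0.28). The gate limited Gabrp, itself a periderm marker, in the members but not in the other ectoderm. Emp1 kept its call against the comparison cells without the Dkk4 and Gabrp cells. Of 43 matrix, integrin and protease genes, Col17a1 and Col18a1, which encode collagens of the epithelial base, were called lower (Col18a1 not at a mitochondrial limit of 5%), and of 35 adhesion and epithelial-mesenchymal transition genes 0 were called. Of 24 apoptosis and phagocytosis genes 0 were called. Among 20 genes known to respond to tissue dissociation 1 was called, the heat shock gene Hspb1, which was lower at 50.7 and 30.8 against 107 and 108.

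**Figure D5:**
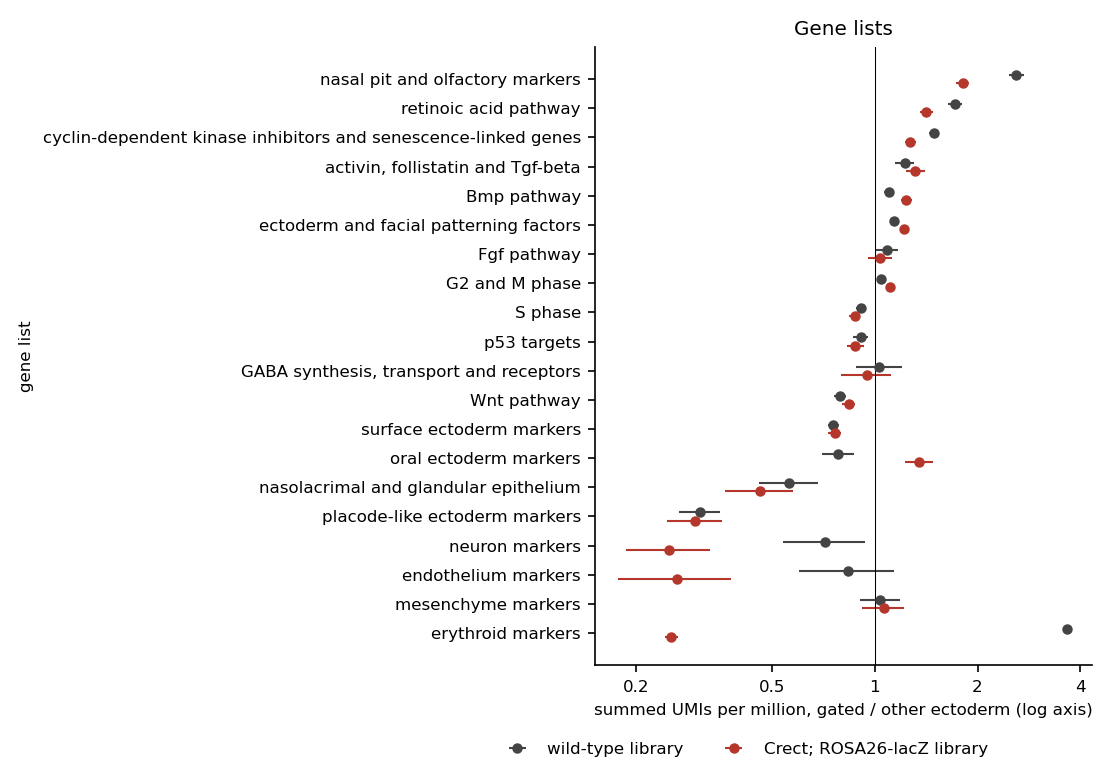
Ratio of summed CPM, members over other ectoderm (x axis, log), for 20 gene lists (y axis) in the wild-type (grey) and the Crect; ROSA26-lacZ library (red), with 95% counting intervals. Nasal pit and retinoic acid lists lie above 1 and the Wnt, surface, glandular and placode lists below 1 in both libraries, the oral and erythroid lists lie on opposite sides of 1, and both GABA intervals include 1. The gate limited Dkk4, a placode-like marker left out of the sums, in the members only.

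The 10 largest rises among called genes with a mean of 20 CPM or more, Cdkn2b among them, included Gucy1a3, a subunit of the guanylate cyclase that responds to nitric oxide. It stood at 54.2 and 26.6 CPM in the members against 5.00 and 4.51 in the other ectoderm, higher by 3.13 ± 0.27 (SE, edgeR adjusted p = 4.06e-05). Mgp, a matrix protein that prevents calcification, stood at 106 and 101 against 17.3 and 27.2 (log2 2.29), and Ripply3 at 89.4 and 32.4 against 15.7 and 9.55 (log2 2.30). Tagln, an actin-binding protein of smooth muscle, rested on the wild-type library, at 114 against 13.4 CPM, whereas the Crect; ROSA26-lacZ sums were 19.1 and 11.8, and DESeq2 did not call it. The others were the transcription factors Tshz2 and Ebf1, the zinc finger gene Zfp385c, the protocadherin Pcdh17, and Lhfp. Their log2 fold changes ran from 1.68 to 1.95, and DESeq2 did not call Ebf1. Against nasal cells alone, a comparison described below, Ebf1, Pcdh17 and Lhfp were not called.

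Since most members were nasal cells, they were also compared with nasal cells of the other ectoderm, a comparison chosen after the values above had been seen. It set 48 and 42 members with 10 or more UMIs of Aldh1a3 and Six3 against 149 and 161 other cells with as many and at most 1 UMI each of Dkk4 and Gabrp. Cells with over 2% haemoglobin UMIs were left out. Of 9839 genes tested, 37 were called higher (0.376%) and 26 lower (0.264%). Aldh1a3 and Six3 were balanced by the choice, at 1154 and 981 against 905 and 1107 for Aldh1a3. Of the 84 genes higher in the members as a whole 21 were called again (25% of these and 56.8% of the 37), and of the 80 lower 7 (8.75% and 26.9% of the 26). The spread in this fit came from all genes together, and its p-values carry no information on the spread of an individual gene. DESeq2 called 5 higher and 2 lower here, and edgeR after thinning to 5000 UMIs called 12 and 4.

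Several lists with calls among all ectoderm had 0 here, among them the Wnt, retinoic acid, Notch, keratin and periderm lists. Cdkn2b and Tgfb2 were called again. Cdkn2b stood at 34.9 and 18.55 CPM in the members against 2.95 and 3.19, higher by 3.05 ± 0.41 (SE, edgeR adjusted p = 5.97e-11). Tgfb2 stood at 144 and 253.9 against 36.5 and 93.8 (log2 1.63). Tgfb1, which was not called over all ectoderm, was called higher here, at 28.85 and 27.3 against 15.85 and 10.2 (log2 1.14). Igfbp3, Rb1, Runx1, Gucy1a3, Mgp, Ripply3, Tshz2, Zfp385c and Tagln were called higher again, whereas Ebf1, Pcdh17 and Lhfp were not. The Tagln call again rested on the wild-type library, at 105.8 against 19.9 CPM. In the Crect; ROSA26-lacZ library Tagln stood at 18.55 against 16.59, a ratio of 1.118 (0.624 to 1.924). At full depth, Ebf1 was found in 56.5% of 69 wild-type and 53.7% of 54 Crect; ROSA26-lacZ members, nasal or not. The shares of the nasal comparison cells were 59.7% and 54.7%. For Lhfp the shares were 72.5% and 87.0% of these members, against 63.1% and 75.2%. Gadd45g, a stress and differentiation gene, at 266 and 181 against 85.9 and 80.7 (log2 1.41), the neurotrophin gene Bdnf (log2 1.30) and the neuropeptide gene Gal (log2 3.06) were called higher too. Tfap2b (log2 -2.41), Irx3 (log2 -2.94), Barx2 (log2 -4.11) and the chemokine gene Cxcl14, at 40.9 and 17.6 against 152 and 59.97, were called lower here as well. So was Cdk6, a cyclin-dependent kinase of early G1 that Cdkn2a and Cdkn2b products inhibit, at 26.45 and 28.3 against 54.9 and 55.8 (log2 -1.004 ± 0.21, edgeR adjusted p = 0.000291). Cdkn2a itself had 0 UMIs in the 161 Crect; ROSA26-lacZ comparison cells, which allows up to 0.957 CPM with a floor of 3 UMIs.

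Members that were not nasal by this measure were 21 and 12 in number. In the wild-type library Tfap2b stood at 269.6 CPM in these against 6.84 in the nasal members, and Cxcl14 at 1022 against 38.8. Cdkn2b stood at 87.5 against 35.3 and at 101 against 18.55. In these small samples Tfap2b had 0 UMIs in the 12 Crect; ROSA26-lacZ members of this kind, so the surface factor was found with them in the wild-type library only.

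Markers of other cell types were low in the members, with exceptions. Summed mesenchyme markers stood at 202 and 192 CPM against 195 and 180.7 in the other ectoderm, and 2 of 11 tested, Lum and Dcn, matrix genes of fibroblasts, were called higher, at 31.0 and 16.6 against 5.67 and 7.56 CPM for Lum. Summed endothelium markers stood at 37.8 and 24.9 against 45.3 and 94.4, and the endothelial kinase gene Tek had 0 UMIs in the members. Of the macrophage markers, Csf1r and Aif1 had 0. The part of these cell types in the results was not tested. Haemoglobin RNA differed more: 1 wild-type member, with 45370 UMIs in all, held 15486 haemoglobin UMIs (34.1% of its own and 77.7% of those in the wild-type members). Without cells above 2% haemoglobin, edgeR called 98 genes higher and 117 lower, and these included 82 of the 84 and 80 of the 80. Scrublet marked 1 member in each library as a doublet, and the libraries shared 76 barcodes, 1 of them among the members.

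The intervals of the transgenes overlapped between the members and the rest. In the Crect; ROSA26-lacZ library Cre stood at 66.5 (52.7 to 82.8) CPM in the members and 72.65 (66.7 to 79.0) in the other ectoderm, and lacZ at 19.95 (12.8 to 29.7) and 18.3 (15.4 to 21.6).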

How the data were processed

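Per the submitters' notes, reads were processed with Cell Ranger 2.0 on build mm10. The authors deposited the counts as UMIs for each gene in each barcode, and their barcode filter is not known here. Members and gene lists were chosen with earlier results of these data known. Counts were summed per library and class (4 sums), scaled to CPM for display, and tested with edgeR 4.0.16 in R 4.3.3 (TMM, filterByExpr, quasi-likelihood, library block, Benjamini-Hochberg). On simulated data for the comparison of all ectoderm (11540 genes), 61% of 2-fold and 96% of 4-fold changes were recovered. Recovery meant an adjusted p under 0.05 in the right direction, without the 2-fold and same-direction limits of the calls. The changes were placed only in genes with enough expected UMIs in the members, and all genes shared a common spread. Recovery under the full call rule was not measured. Named genes were, list by list until 30 were reached, up to 2 called genes per direction with the largest change and a mean of 20 CPM or more, then the 10 largest rises and 5 largest falls at the same mean with 10 or more UMIs in each library's higher class. Other genes were named after their values were seen. Doublets were scored with Scrublet (scanpy 1.11.5) and left in. In the Crect; ROSA26-lacZ library it marked 2 barcodes automatically, so the highest 6% were taken as doublets in the alternative without them. Further alternatives were DESeq2 1.42.0, other filters, gates and depths, and each library left out. The haemoglobin limit and the nasal comparison were added after the data were seen. Gene positions came from GENCODE vM21. Some genes of the lists are not reported here by name. p-values rest on 1 residual degree of freedom.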

Additional observations from a re-analysis of the deposited data

Results flagged for a closer look

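Summed erythroid markers went opposite ways in the 2 libraries, at 3.66 times the other ectoderm in the wild-type members and 0.254 times in the Crect; ROSA26-lacZ members. Without cells above 2% haemoglobin UMIs, a limit chosen after the data were seen, the ratios were 1.13 (1.10 to 1.17) and 0.947 (0.903 to 0.993). Summed oral ectoderm markers were also split, at 0.782 in the wild-type and 1.35 in the Crect; ROSA26-lacZ library. Of the genes in that list Sox2 had ratios of 1.36 and 2.05 and Pitx1 of 1.01 and 1.545. The differences between the libraries were not tested, since each genotype has 1 library.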

How the results depend on the processing

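Across the alternatives, 0 of the 34 named genes changed direction (for either library left out the call rule fixes this), and 23 kept their call under each edgeR and DESeq2 alternative other than the fit without the library block, in which all 34 lost it. The counts of genes called higher and lower moved from 84 and 80 to 43 and 24 with DESeq2 and to 0 and 0 without the library block. The count called lower moved to 143 without the filter on low counts, to 43 with cells thinned to 5000 UMIs and to 135 without Scrublet doublets. Calls higher were 51.2% of all calls, 64.2% with DESeq2 and 39.9% without the filter. Among nasal cells 37 and 26 moved to 5 and 2 with DESeq2 and to 12 and 4 after thinning. The cause was not tested. The share of members moved from 9.12% and 11.1% to 4.82% and 6.16% (3 UMIs), 15.6% and 20.9% (1 UMI) and 4.37% and 3.18% (thinned). The wild-type ratio of Gad2 in cells chosen on Cdkn2a moved from 5.64 to 8.45 with the Dkk4 and Gabrp limits, and that of Cdkn2a in cells chosen on Gad2 from 11.52 to 7.47 without the cell with most Cdkn2a. In the Crect; ROSA26-lacZ library the latter moved from 63.1 to 7.03 with the limits. These alternatives were chosen after seeing the data. After thinning the wild-type ratios were 2.75 and 2.62, with no value in the other library, where the chosen cells held 0 UMIs. S phase ratios after thinning were 0.861 and 0.787, and G2 and M phase ratios 1.07 and 1.16. No test between genotypes was possible because each genotype has 1 library. The library block paired the members with the other ectoderm of the same library. Depth limits genes of a few UMIs per sum, and the gate itself needs 2 UMIs in a cell.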

Other observations

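Igfbp5, which binds insulin-like growth factors, held the largest share of the UMIs summed over the inhibitor and senescence list. It stood at 2016 and 1664 CPM in the members against 923 and 981 in the other ectoderm, a log2 fold change of 0.99 that fell just short of the 2-fold limit. The death receptor gene Fas, a p53 target, stood at 5.16 and 7.48 CPM against 0.583 and 2.39. Clu, a secreted chaperone, was called higher at 181 and 295 against 57.8 and 97.0 (log2 1.67, edgeR adjusted p = 1.56e-06), and Dlk1, a Notch-related ligand, at 66.2 and 398 against 20.1 and 164 (log2 1.47). These genes were picked after their values were seen.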
